A study of Homo sapiens with 24 samples.

Results

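The genes examined here encode the factors that start and elongate protein synthesis in human cells, and they were taken by name: every gene whose symbol begins with EIF and a digit from 1 to 6, or with EEF1 or EEF2, together with PABPC1, PABPC4, TPT1 and NAP1L1. Argonaute genes under their older EIF2C names, the EIF2AK kinases and pseudogenes were dropped, which removed 9 names. This gave 60 genes of the 16742 listed in any of the 4 comparison tables. They fell into 6 elongation factors, 8 other genes with a known 5′TOP mRNA, 37 other initiation factors, 3 eIF5A genes and 6 regulators. A mean of at least 10 normalized counts, the minimum for use, was reached by 56 of the 60 in all 4 tables. The exceptions were EEF1A2, which was under the minimum in both RPE1 tables, EIF3C, EIF4E1B and EIF4EBP3. EIF4A1 was not analysed here.

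RNA was sequenced from 24 libraries, 3 for each of 4 aneuploid lines and 3 for the parental line of each. HCT116 is a colorectal carcinoma cell line with a modal number of 45 chromosomes, and RPE1 is a retinal pigment epithelial line immortalized with hTERT that has 46. HCT116 5/4 carried 4 copies of chromosome 5 and was received from another laboratory. The other lines were made by transfer of single chromosomes in microcells: HCT116* 8/3 c7 was 1 clone with 3 copies of chromosome 8, RPE1 5/3 12/3 had 3 copies of chromosome 5 and, gained spontaneously, of chromosome 12, and RPE1* 21/3 had 3 copies of chromosome 21. The asterisk marks lines that express the fluorescent histone H2B-GFP, and their parental lines HCT116* and RPE1* express it too. The study names both the laboratory that provided HCT116 5/4 and the American Type Culture Collection as the origin of the parental HCT116. All were grown in DMEM with 5% fetal calf serum. The labels do not say whether the 3 libraries of a group were separate cultures, so the p-values measure the spread between these samples, which may be technical. The study's methods speak of biological replicates for the small RNA libraries of its lines. In bulk RNA a smaller share of cells with an mRNA and less of it per cell cannot be told apart.

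Protein synthesis begins when eIF2 brings the initiator tRNA to the small ribosomal subunit, eIF3 holds the assembly together, and the eIF4 proteins recognise the cap and open the mRNA. eEF1A then delivers each aminoacyl-tRNA, its partners eEF1B2, eEF1D and eEF1G recharge it with GTP, and eEF2 moves the ribosome along. The mRNAs of the elongation factors, like those of ribosomal proteins, belong to the 5′TOP class: they begin with a cytosine followed by a run of pyrimidines, and their translation is switched on and off by the mTORC1 kinase through the cap-binding repressor LARP1.

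The first bases of the mRNAs are shown because they define the 5′TOP class. They are 25 bases long, run from the RefSeq start into the first exon, and carry GRCh38.p14 coordinates. Capitals mark a cytosine at the first base with at least 4 further C or T, searched on the sense strand, and the other bases are in lower case. Elongation factors come first, then other listed 5′TOP mRNAs, then initiation factors outside the list that had such a start, and last EIF4A3, which did not.
EEF1A1 (chr6:73521008-73521032, minus strand): CTTTTTCgcaacgggtttgccgcca
EEF1B2 (chr2:206159895-206159919, plus strand): CCTTTTTCCTCTCTTCagcgtgggg
EEF1G (chr11:62573867-62573891, minus strand): actttgcggcagcgccgagaacccc
EEF2 (chr19:3985439-3985463, minus strand): CTCTTCCgccgtcgtcgccgccatc
EIF3F (chr11:7987337-7987361, plus strand): CTTCTTTCTCgacaagatggccaca
EIF4B (chr12:53006456-53006480, plus strand): CTTTTgcgttctctttccctctccc
NAP1L1 (chr12:76084661-76084685, minus strand): CTTTTTTagcgccatctgctcgcgg
TPT1 (chr13:45341159-45341183, minus strand): CTTTTCCgcccgctcccccctcccc
EIF2A (chr3:150546787-150546811, plus strand): CTCTTTCCgggacaacatggcgccg
EIF2D (chr1:206612441-206612465, minus strand): CCTTTTCgcggccgggccccagcat
EIF2S3 (chrX:24054956-24054980, plus strand): CTCTTTTggcaacatggcgggcgga
EIF3D (chr22:36529142-36529166, minus strand): CTCTTTTCCTggtttctcaagagtg
EIF3K (chr19:38619188-38619212, plus strand): CTCTTCCTgttcccgtccttgagga
EIF3M (chr11:32583831-32583855, plus strand): CTTTTCCggtcggcgtggtcttgcg
EIF4A2 (chr3:186783577-186783601, plus strand): CTTTTCagtcgggcgctgagtggtt
EIF4A3 (chr17:80147104-80147128, minus strand): acagcgaggtcggcagcggcacagc

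Such a start was found in 14 of the 49 members with a RefSeq window (28.6%). A gene counted when any of its windows had it, as 5.14% of all 27305 genes with a window did. The share was 7.70% of the 9445 windowed genes that reached the minimum mean in all tables, and 4.07% of all 35116 windows. EEF1B2 counted by the window printed above and has another without such a start. Of the listed elongation and 5′TOP genes, 7 of 8 with a window had it. EEF1G, whose annotated first base is an adenine, was the eighth. Among the other initiation factors 7 of 33 had it, and these 7 are the ones printed above. When the tract could begin up to 5 bases to either side of the annotated start, 24 of 49 members (49.0%) had one. So did 25.2% of all genes with a window, 29.9% of those that reached the minimum mean in all tables, and 21.1% of all windows. The starts are a description of the annotation, not of the ends of the sequenced RNA. No window was at hand for EEF1A2, EEF1D, EIF2S2, EIF3A, EIF3E, EIF3G, EIF3H, EIF3L, EIF4EBP1, PABPC1 and PABPC4.

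Each value below is a log2 fold change of the aneuploid line over its parental line, with the standard error of the deposited DESeq2 fit. A gene passed, and is said to have risen or fallen, when the Wald test gave an adjusted p under 0.05 over the whole table, and it is called deregulated when the log2 fold change was also beyond 0.6 in either direction. Levels of a line and its parent are normalized counts computed from the mean and the fold change in the table, since the tables hold no single libraries. Where 4 values follow each other they are given in 1 order of lines, namely HCT116 5/4, then HCT116* 8/3 c7, then RPE1 5/3 12/3 and last RPE1* 21/3. Across all genes used the median log2 fold change was 0.00, 0.01, 0.00 and 0.00. Epithelial markers chosen for HCT116 were present in both of its tables, EPCAM with a mean of 4192 and 5683, although VIL1 was not listed. KRT8 and KRT18 were high in the RPE1 tables too, with means of 19618 and 16721 for KRT8 and of 12481 and 13422 for KRT18. EPCAM and CDH1 fell in HCT116 5/4, by 2.57 and 2.34 on the log2 scale, and KRT8 and KRT18 rose by 1.25 and 1.57. Defining markers of retinal pigment epithelium were low or not listed in the RPE1 tables: RPE65 had a mean of 10.4 and 4.58, RLBP1 of 32.4 and 4.77, PMEL of 17.8 and 14.8, BEST1 of 42.7 and 41.3, and TYRP1 was not listed, whereas MITF had 1439 and 1124. RPE65 was higher in the HCT116 tables, with a mean of 287 and 194. These markers changed in both directions: in HCT116 5/4 RPE65 rose (log2 fold change 2.26) and MITF and PMEL fell (-3.20 and -1.53), and in RPE1 5/3 12/3 RLBP1 rose (3.35) and RPE65, BEST1 and MITF fell (-3.27, -1.23 and -1.03). The part of these marker genes' changes in the results below was not tested.

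In HCT116 5/4, 5 of 58 members fell and 0 rose, where 10.5% of all genes fell and 11.3% rose, so members fell no more often than genes at large. The members that rose in RPE1 5/3 12/3 were 9 of 56 and 0 fell, where 10.4% of all genes rose and 9.92% fell. Only EIF4EBP1, on the gained chromosome, passed in HCT116* 8/3 c7, where it rose, and none passed in RPE1* 21/3 by the DESeq2 Wald test, with 2 at an unadjusted p under 0.05, as had 1257 of all 13101 genes. The elongation factors and other 5′TOP genes lay further from 0 than the other initiation factors in all 4 lines, and on the same side. Their median log2 fold change was -0.42 against -0.23 in HCT116 5/4, -0.09 against -0.01 in HCT116* 8/3 c7, 0.38 against 0.16 in RPE1 5/3 12/3, and -0.27 against -0.08 in RPE1* 21/3. The differences between the medians were -0.19, -0.08, 0.21 and -0.19, and these medians carry no test. Without the initiation factors that have a pyrimidine start, a division chosen after seeing the data, the medians of the others were -0.15, 0.00, 0.07 and -0.07. In RPE1 5/3 12/3 all 13 elongation and 5′TOP genes at the minimum mean were above 0, in RPE1* 21/3 all 13 were below 0, and in HCT116 5/4 and HCT116* 8/3 c7 12 and 11 of 14 were below 0. Of the other initiation factors, 27 of 36 were below 0 in HCT116 5/4, 20 of 36 in HCT116* 8/3 c7 and 23 of 35 in RPE1* 21/3, and 24 of 35 were above 0 in RPE1 5/3 12/3.

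**Figure D1:**
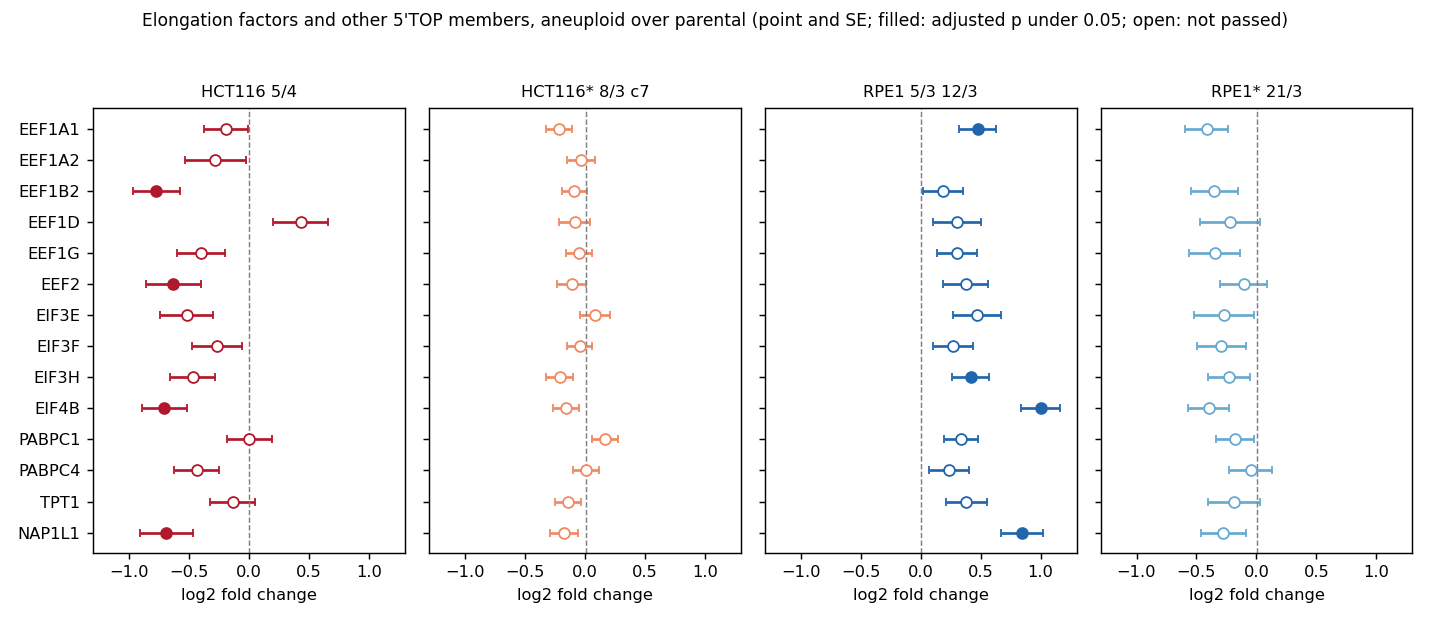
Log2 fold change of the 6 elongation factors and 8 other 5′TOP genes (rows) in the 4 aneuploid lines (panels), with the standard error as a bar. Filled points passed the test, the dashed line is the median of all genes, and EEF1A2 is left out of the RPE1 panels because its mean was under 10. All points lie right of the line in RPE1 5/3 12/3 and left of it in RPE1* 21/3.

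Among all genes whose mean reached 3000 the median was -0.01, 0.01, 0.04 and -0.05 in the 4 lines. The members were also set against the genes around them, those within 5 Mb. The median difference of an elongation or 5′TOP gene from the median of its neighbours was -0.37, -0.10, 0.35 and -0.22, and for the other initiation factors it was -0.23, -0.02, 0.17 and -0.07. The cytosolic ribosomal protein genes, also of the 5′TOP class, had medians of -0.48, -0.11, 0.31 and -0.32 over 82 genes in the HCT116 tables and 83 in the RPE1 tables, the same signs as the elongation and 5′TOP members. That list was added after the values of the members were seen.

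In HCT116 5/4 the 5 members that fell were EIF4A3, EEF1B2, EIF4B, NAP1L1 and EEF2, and all 5 were deregulated. Of all genes there, 11.3% rose, 10.5% fell and 20.6% were deregulated, so the shares of members called stayed under the background for each call. Among the 14 elongation and 5′TOP genes, 4 fell.

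EEF1B2, a subunit of the exchange factor of eEF1A, went from 13446 normalized counts in HCT116 to 7876 in HCT116 5/4, a log2 fold change of -0.77 ± 0.20 (SE, adjusted p = 0.000764). EEF2, the translocase, went from 90141 to 58175, a change of -0.63 ± 0.23 (adjusted p = 0.0303). Their relatives did not pass. EEF1G was at -0.40 ± 0.20 (adjusted p = 0.163), EEF1A2 at -0.28 ± 0.26, EEF1A1 at -0.19 ± 0.19 and EEF1D at 0.43 ± 0.23 (adjusted p = 0.191). EEF1D was thus on the other side of 0 from EEF1B2, with which it shares a complex, and was the highest of the 14.

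EIF4B, which helps the eIF4A helicase to unwind the 5′ end of mRNAs, fell from 28067 to 17177 (-0.71 ± 0.19, adjusted p = 0.00141). NAP1L1, a histone chaperone with a 5′TOP mRNA, fell from 13337 to 8263 (-0.69 ± 0.22, adjusted p = 0.0108). The remaining 5′TOP genes did not pass: EIF3E was at -0.52 ± 0.22, EIF3H at -0.47 ± 0.19, PABPC4 at -0.44 ± 0.19, EIF3F at -0.27 ± 0.21 and TPT1, the translationally controlled tumour protein, at -0.14 ± 0.19. PABPC1, the main cytoplasmic poly(A)-binding protein, was at 0.00 ± 0.19 with 75990 counts in the parent and 76178 in the aneuploid line. EIF4A3, the helicase of the exon junction complex, was the initiation factor outside the 5′TOP list that fell, from 4734 to 2642 (-0.84 ± 0.19, adjusted p = 0.000184). It lies on 17q (GRCh37 chr17:78108168-78120950), where the 133 other genes within 5 Mb had a median of -0.50. The neighbours of EEF1B2, EIF4B, NAP1L1 and EEF2 had medians of -0.06, 0.02, -0.10 and -0.04.

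In RPE1 5/3 12/3 the 9 members that rose covered elongation, eIF1, eIF2, eIF3 and eIF4. EIF4B and NAP1L1, both on the gained chromosome 12, were deregulated. The other 7 were EIF3M, EEF1E1, EIF3D, EEF1A1, EIF1, EIF3H and EIF2S3, none of them on chromosome 5 or 12. Of all genes there, 10.4% rose, 9.92% fell and 16.6% were deregulated. The 9 of 56 members that rose were thus a larger share than the background, and the 0 that fell and the 2 deregulated were smaller shares.

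EEF1A1, which delivers aminoacyl-tRNA and is the most abundant member per kb, rose from 265156 counts in RPE1 to 368600 (0.48 ± 0.16, adjusted p = 0.0158). The other elongation factors were all above 0 but did not pass: EEF2 was at 0.38 ± 0.19 (adjusted p = 0.161), EEF1G at 0.31 ± 0.17, EEF1D at 0.30 ± 0.20 and EEF1B2 at 0.19 ± 0.17. The 192 neighbours of EEF1G on 11q had a median of 0.33, close to its own value, while the 18 neighbours of EEF1A1 had -0.11.

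EIF4B rose from 16624 to 33224 counts, a log2 fold change of 1.00 ± 0.16 (adjusted p = 3.81e-08), and NAP1L1 from 19355 to 34753, a change of 0.84 ± 0.17 (adjusted p = 1.53e-05). EIF3H, an eIF3 subunit, rose by 0.42 ± 0.15 (adjusted p = 0.0387), and the median of its neighbours was 0.25. The 5′TOP genes that did not pass were EIF3E at 0.47 ± 0.20, TPT1 at 0.38 ± 0.17, PABPC1 at 0.34 ± 0.14, EIF3F at 0.27 ± 0.17 and PABPC4 at 0.24 ± 0.16. Without the genes on the gained chromosomes, 11 of 11 elongation and 5′TOP genes were above 0 with a median of 0.34, and 2 of them rose.

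Of the other initiation factors in RPE1 5/3 12/3, EIF3M rose by 0.59 ± 0.17 (1909 to 2866 counts, adjusted p = 0.00626), EIF3D by 0.49 ± 0.17 (3879 to 5437, adjusted p = 0.0255), EIF1, a factor of start codon selection, by 0.43 ± 0.15 (7568 to 10199, adjusted p = 0.0303) and EIF2S3, the gamma subunit of eIF2, by 0.41 ± 0.16 (4402 to 5853, adjusted p = 0.0492). EEF1E1, which despite its name is a scaffold of the aminoacyl-tRNA synthetase complex, rose from 178 to 268 counts (0.59 ± 0.22, adjusted p = 0.0394). EIF2S3, EIF3D and EIF3M are 3 of the 7 initiation factors printed above with a pyrimidine start, and EIF1 had a tract only when 5 bases to either side were allowed.

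Few calls were made in HCT116* 8/3 c7 and RPE1* 21/3, for members and for all genes. In the former 1.85% of all genes rose, 1.52% fell and 1.8% were deregulated, and 1 of 58 members rose, 0 fell and 0 were deregulated. In RPE1* 21/3 the shares were 1.69%, 1.67% and 3.31%, and 0 of 56 members were called by the DESeq2 Wald test in any of the 3 ways. At an unadjusted p under 0.05, 2 members were lower and 0 higher in RPE1* 21/3, EEF1A1 and EIF4B, and 2 were higher and 3 lower in HCT116* 8/3 c7. Of all genes, 573 were lower and 684 higher at that p in RPE1* 21/3, and 588 of 13869 higher and 634 lower in HCT116* 8/3 c7.

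In HCT116* 8/3 c7 the elongation factors ran from -0.22 ± 0.11 for EEF1A1 to -0.03 ± 0.12 for EEF1A2. EEF2 was at -0.11 ± 0.12, EEF1B2 at -0.09 ± 0.10, EEF1D at -0.08 ± 0.13 and EEF1G at -0.05 ± 0.11. The other 5′TOP genes ran from -0.21 ± 0.11 for EIF3H to 0.17 ± 0.11 for PABPC1, with NAP1L1 at -0.17, EIF4B at -0.16, TPT1 at -0.14, EIF3F at -0.04, PABPC4 at 0.01 and EIF3E at 0.08. In RPE1* 21/3 the elongation factors ran from -0.41 ± 0.18 for EEF1A1, which had 252917 counts in RPE1* and 189701 in the trisomic line, to -0.11 ± 0.20 for EEF2. EEF1B2 and EEF1G were both at -0.35 and EEF1D at -0.22. The other 5′TOP genes ran from -0.40 ± 0.17 for EIF4B to -0.05 ± 0.18 for PABPC4, with EIF3F at -0.29, NAP1L1 at -0.28, EIF3E at -0.27, EIF3H at -0.23, TPT1 at -0.19 and PABPC1 at -0.18. All 13 values were below 0, and none passed.

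The fold changes themselves differed between the lines for 13 of 56 members (Cochran Q test over the 4 fold changes with 3 degrees of freedom, adjusted over 11939 genes), against 25.9% of all genes, a larger share. Of the 13 elongation and 5′TOP genes tested, 7 differed, and of the 35 other initiation factors, 5 did. The 7 were EIF4B (adjusted p = 4.23e-11), NAP1L1 (4.11e-07), EEF1A1 (0.00282), EIF3H (0.00532), EEF1B2 (0.00759), EIF3E (0.0246) and EEF2 (0.0329). The 5 were EIF3M (0.00313), EIF4A3 (0.00462), EIF3L (0.00931), EIF3D (0.0107) and EIF2S3 (0.0240). EIF4EBP1, a regulator, also differed (0.0403).

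The pair of lines with the most differing members was HCT116 5/4 and RPE1 5/3 12/3, which share extra copies of chromosome 5: 14 of 56 members differed between them in a z test of the 2 fold changes, adjusted over all genes, against 18.5% of all genes. All 14 were lower in HCT116 5/4 than in RPE1 5/3 12/3, and 9 of them were elongation or 5′TOP genes. Given as HCT116 5/4 minus RPE1 5/3 12/3, EIF4B differed by -1.71 ± 0.25 (adjusted p = 3.45e-10) and NAP1L1 by -1.54 ± 0.28 (adjusted p = 9.49e-07). EEF2 differed by -1.01 ± 0.29 (adjusted p = 0.00566) and EEF1B2 by -0.96 ± 0.26 (adjusted p = 0.00203). EIF3E, EIF3D, EIF3M, EIF3H and EIF3L differed by -0.99, -0.95, -0.92, -0.89 and -0.86.

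Between RPE1* 21/3 and RPE1 5/3 12/3, 5 of 56 members differed, a share no larger than the 9.32% of all genes that did. They were EIF4B, NAP1L1, EIF3M, EEF1A1 and EIF3L. EEF1A1 was 0.89 ± 0.24 higher in RPE1 5/3 12/3 (adjusted p = 0.00408) and EIF3M 0.94 ± 0.27 (adjusted p = 0.00893). Between HCT116* 8/3 c7 and RPE1 5/3 12/3, 7 members differed, also under the share of all genes (14.9%), including EIF2S3, EIF3H and the same EIF3L and EIF3M. Between HCT116 5/4 and HCT116* 8/3 c7, 3 differed (18.9%): EIF4A3, EEF1B2 and EIF4EBP1. Between HCT116 5/4 and RPE1* 21/3 EIF4A3 alone differed (10.5%), and between HCT116* 8/3 c7 and RPE1* 21/3 no member did (2.57%), with 0 at an unadjusted p under 0.05. The 4 tables share no library.

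Among the initiation complexes, eIF3 had the signs of the 5′TOP genes, of which EIF3E, EIF3F and EIF3H are subunits. Its 12 subunits at the minimum mean were all below 0 in HCT116 5/4 (median -0.39) and in RPE1* 21/3 (median -0.16), 9 of 12 were below 0 in HCT116* 8/3 c7 (median -0.06), and 10 of 12 were above 0 in RPE1 5/3 12/3 (median 0.33), where 3 rose. No subunit passed the Wald test in the other 3 lines, with 6 of the 12 lower at an unadjusted p under 0.05 in HCT116 5/4, where 2133 of all 13887 genes were, and 0 in HCT116* 8/3 c7 and RPE1* 21/3. EIF3C, which has a near-identical copy in the genome, had a mean under 10 and was not used. The subunits in HCT116 5/4 ran from -0.58 ± 0.28 for EIF3J to -0.00 ± 0.21 for EIF3G, and in RPE1 5/3 12/3 from -0.12 ± 0.20 for EIF3J to 0.59 ± 0.17 for EIF3M. In HCT116* 8/3 c7 EIF3H was lowest and EIF3E highest, and in RPE1* 21/3 EIF3M was lowest at -0.35 ± 0.21 and EIF3J highest at -0.06 ± 0.18. EIF3J, a loosely bound subunit, was thus lowest in HCT116 5/4 and RPE1 5/3 12/3 and highest in RPE1* 21/3.

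The eIF4 group was split in RPE1 5/3 12/3. There, where EIF4B had the highest fold change of all members, 7 of the 10 eIF4 genes were below 0 and the median was -0.07. EIF4E, the cap-binding protein, was at -0.05, its scaffold EIF4G1 at -0.21, the related EIF4G2 and EIF4G3 at -0.09 and -0.05, EIF4H, a relative of EIF4B in function, at 0.03, and EIF4E3 was lowest at -0.27 ± 0.39. EIF4A2, one of the helicases and a member with a pyrimidine start, was at 0.33 ± 0.18. The group in HCT116 5/4 ran from -1.22 ± 0.61 for EIF4E1B, which was near the minimum at a mean of 10.8, to 0.47 ± 0.22 for EIF4E3, with a median of -0.21. Its range was -0.19 (EIF4A2) to 0.20 (EIF4G2) in HCT116* 8/3 c7 and -0.40 (EIF4B) to 0.16 (EIF4A2) in RPE1* 21/3.

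**Figure D2:**
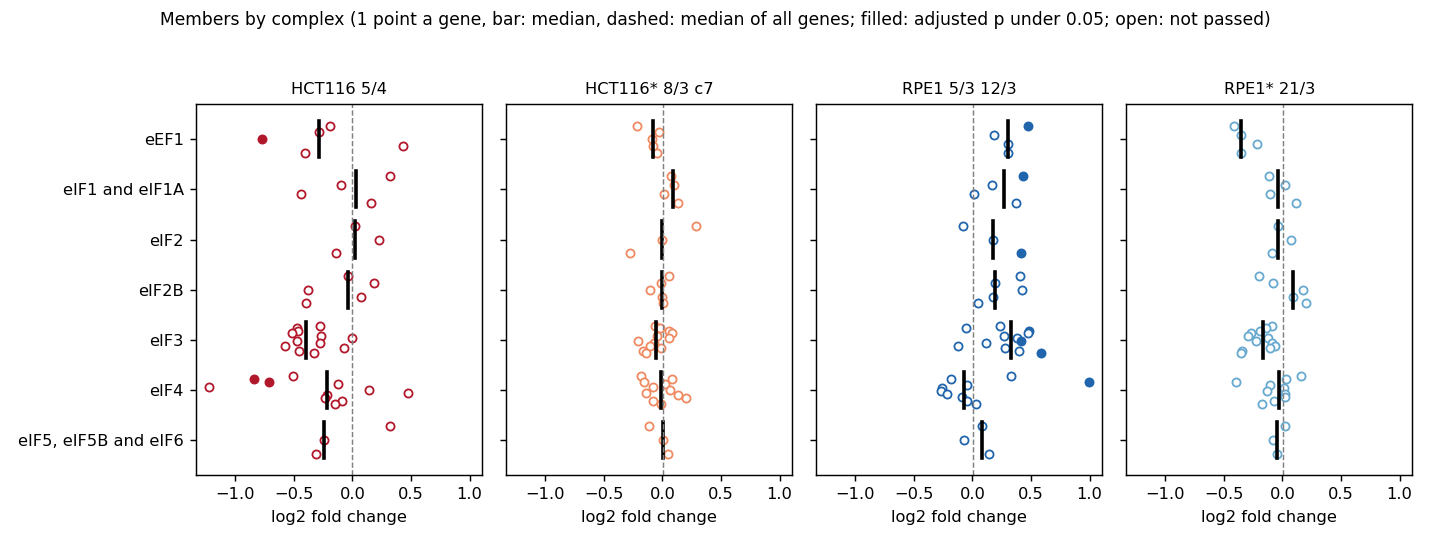
Log2 fold change of single members (points, filled where the test was passed) by complex (rows) in each line (panels), with the median of each complex as a bar. The eIF3 points lie left of the median of all genes in HCT116 5/4 and RPE1* 21/3 and mostly right of it in RPE1 5/3 12/3, where most eIF4 points lie near it.

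The eIF2 trimer, which carries initiator tRNA, had 1 passing value, that of EIF2S3 in RPE1 5/3 12/3. EIF2S1, the subunit phosphorylated in stress, was at 0.02, 0.29, -0.08 and -0.04 in the 4 lines. EIF2S2 was at 0.23, -0.00, 0.17 and 0.07, and EIF2S3, on the X chromosome, was at -0.14, -0.28, 0.41 and -0.09. The alternative factors EIF2A and EIF2D were both below 0 in HCT116 5/4 (-0.24 each), HCT116* 8/3 c7 (-0.11 and -0.14) and RPE1* 21/3 (-0.31 and -0.09) and above 0 in RPE1 5/3 12/3 (0.52 ± 0.21, adjusted p = 0.0638, and 0.21).

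eIF2B, the exchange factor of eIF2, had 0 of 5 subunits passing in any line, with 0 at an unadjusted p under 0.05 except for 2 that were higher in RPE1 5/3 12/3, as were 2047 of all 13278 genes. Its subunits ran from -0.39 (EIF2B5) to 0.18 (EIF2B2) in HCT116 5/4, from -0.11 (EIF2B3) to 0.06 (EIF2B1) in HCT116* 8/3 c7, from 0.05 (EIF2B5) to 0.43 (EIF2B3) in RPE1 5/3 12/3 and from -0.20 (EIF2B1) to 0.20 (EIF2B5) in RPE1* 21/3. The scanning factors eIF1 and eIF1A ran from -0.44 (EIF1AX) to 0.32 (EIF1), from 0.01 (EIF1AX) to 0.13 (EIF1B), from 0.01 (EIF1AX) to 0.43 (EIF1) and from -0.11 (EIF1) to 0.12 (EIF1B) in the same order of lines. The factors of subunit joining ran from -0.31 (EIF6) to 0.32 (EIF5), from -0.12 (EIF5) to 0.05 (EIF6), from -0.08 (EIF5B) to 0.15 (EIF6) and from -0.08 (EIF5B) to 0.02 (EIF5).

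eIF5A, which carries hypusine and relieves ribosomes stalled during elongation, did not pass in any line by the Wald test, and at an unadjusted p under 0.05 EIF5A and EIF5AL1 were lower in HCT116 5/4 and EIF5AL1 in HCT116* 8/3 c7. Of all genes, 2133 of 13887 were lower at that p in HCT116 5/4 and 634 of 13869 in HCT116* 8/3 c7. EIF5A was at -0.44 ± 0.21, -0.03 ± 0.13, -0.04 ± 0.22 and -0.23 ± 0.29. Its paralog EIF5A2 was highest of the 3 in each line, at 0.34, 0.08, 0.04 and 0.30. EIF5AL1, an intronless copy of EIF5A whose reads may come from its source gene, was at -0.52, -0.48, -0.00 and -0.27.

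The initiation factors outside the 5′TOP list were also compared by their start. In RPE1 5/3 12/3 all 7 with the start were above 0, with a median of 0.41 and 3 that rose, against 13 of 24 without it, a median of 0.02 and 1 that rose. All 7 in HCT116 5/4 were below 0 with a median of -0.24, against -0.15 without the start, where 17 of 25 were below 0 and EIF4A3 fell. The medians were -0.14 and 0.00 in HCT116* 8/3 c7 and -0.11 and -0.05 in RPE1* 21/3. With a tract allowed within 5 bases, 13 factors had a median of -0.24, -0.11, 0.28 and -0.09 in the 4 lines and the rest -0.15, 0.00, 0.04 and -0.08. Over all members with the start at the annotated base, 14 of 14 were below 0 in HCT116 5/4 and 14 of 14 above 0 in RPE1 5/3 12/3. Over all genes with it, the medians were -0.10, -0.04, 0.12 and -0.05. Of all genes in RPE1 5/3 12/3, 123 of 777 with the start rose and 966 of 9559 without it. In HCT116 5/4, 108 of 787 with it fell and 968 of 9882 without it. The division by the annotated base was made after the values were seen, and the counts carry no test.

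**Figure D3:**
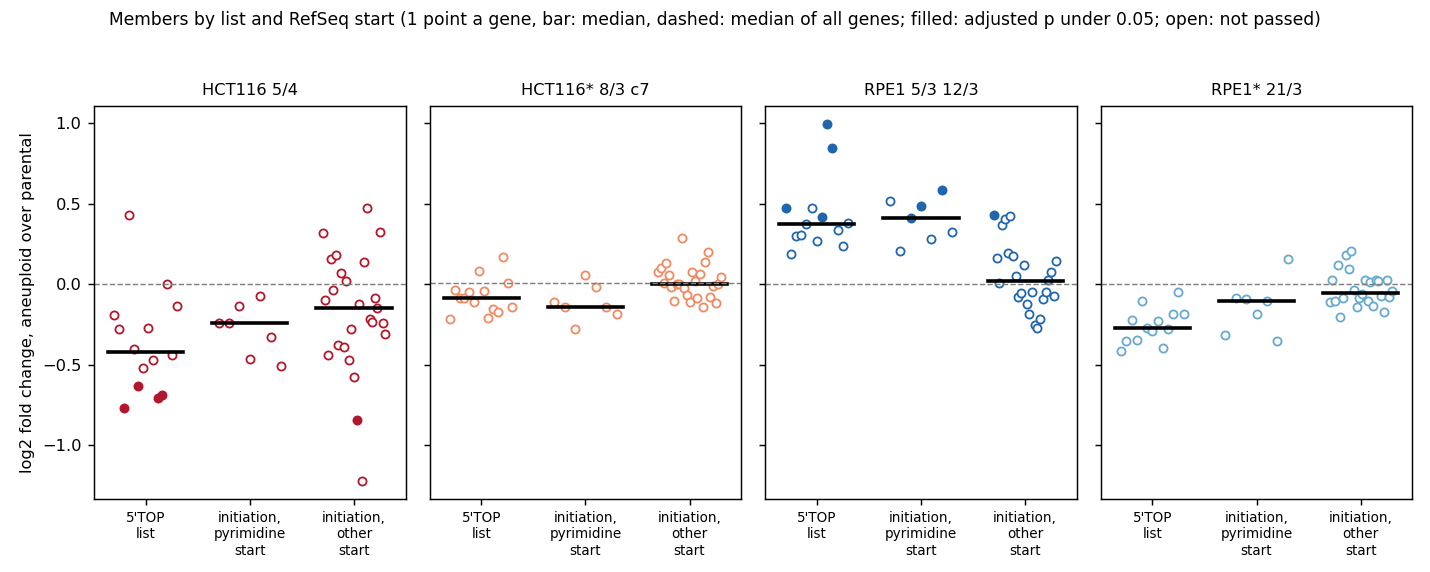
Log2 fold change of single genes (points, filled where the test was passed) in 3 sets for each line: the elongation and 5′TOP list, other initiation factors with a pyrimidine start, and other initiation factors with another start, with medians as bars. In RPE1 5/3 12/3 the first 2 sets lie above the median of all genes, drawn as a dashed line, and the third is centred near it.

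Few members lay on gained chromosomes. In RPE1 5/3 12/3 3 members lay on chromosome 12 and none with a value on chromosome 5. A change from 2 to 3 copies corresponds to a log2 ratio of 0.58, and the 685 genes of chromosome 12 had a median of 0.43. EIF4B (GRCh37 chr12:53400066-53435999) was at 1.00 with a 95% interval of 0.68 to 1.32, and its 170 neighbours within 5 Mb had a median of 0.46. NAP1L1 (chr12:76430365-76478515) was at 0.84, interval 0.51 to 1.18, with 24 neighbours at 0.40. The lower bound for EIF4B thus lay above the ratio of copies and that for NAP1L1 below it. EIF2B1, a subunit of eIF2B, was at 0.41 ± 0.18 (adjusted p = 0.0952), close to its neighbours at 0.39.

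In HCT116* 8/3 c7 5 members lay on chromosome 8, whose 465 genes had a median of 0.22. EIF4EBP1, the inhibitor that holds eIF4E until mTORC1 phosphorylates it, rose from 953 to 1378 counts (0.53 ± 0.15, adjusted p = 0.0115), and its 41 neighbours had a median of 0.44. The 5′TOP genes of this chromosome were lower. PABPC1 was at 0.17, interval -0.04 to 0.37, with neighbours at 0.27, and EIF3E at 0.08, interval -0.16 to 0.33, with neighbours at 0.36. EIF3H was at -0.21, interval -0.43 to 0.01, with neighbours at -0.03, and EEF1D at -0.08, interval -0.34 to 0.17, with neighbours at -0.04. All of these intervals lay under the ratio of copies, as did the median of the chromosome. The 1 member on chromosome 5 in HCT116 5/4 was EIF4E1B, at -1.22 ± 0.61 (adjusted p = 0.153), where 4 copies correspond to a ratio of 1 and its neighbours had a median of 0.86. No member lay on chromosome 21.

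**Figure D4:**
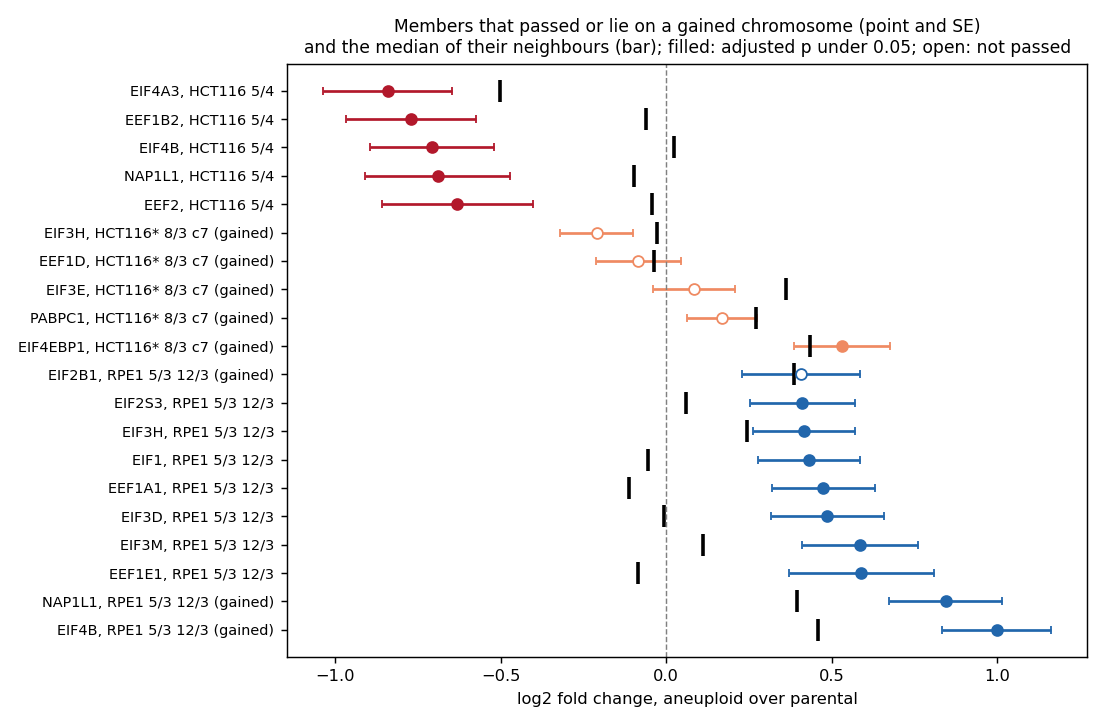
Log2 fold change with its standard error for members that passed in a line or lay on a gained chromosome, with a mean of 100 or more, beside the median of the genes within 5 Mb (black bar). EIF4B and NAP1L1 in RPE1 5/3 12/3 lie right of their neighbours, and EIF4A3 in HCT116 5/4 is the member that fell whose neighbours lie furthest below 0.

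Levels per kb of canonical transcript ordered the members in a similar way in the 4 tables, which were normalized separately. EEF1A1 was highest in each, at 94399, 93491, 90227 and 63015 normalized counts per kb in the 4 tables. By this measure PABPC1, EEF1G and EEF2 held the next 3 ranks in every table. These levels are means over a line and its parent, so their spread over libraries is not known. The order of neighbouring ranks was not tested. It also depends on the 1 annotated length used for each gene, and other lengths were not tried. Before division by length, TPT1 had means of 43889, 36584, 41274 and 32723 in the 4 tables. Those of EEF1G were 35701, 38589, 31062 and 24261, although EEF1G ranked above TPT1 per kb in each. Some paralogs stood at different levels in the 2 cell types. EEF1A2, the muscle and neuron form of eEF1A, stood at 6.59% and 6.72% of EEF1A1 per kb in the 2 HCT116 tables and at 0.00304% and 0.0043% in the 2 RPE1 tables. EIF4E3 had a mean of 516 and 420 normalized counts in the HCT116 tables and of 44.2 and 45.3 in the RPE1 tables. PABPC4 stood at 7.64% and 8.88% of PABPC1 in HCT116 and at 13.1% and 14.4% in RPE1.

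**Figure D5:**
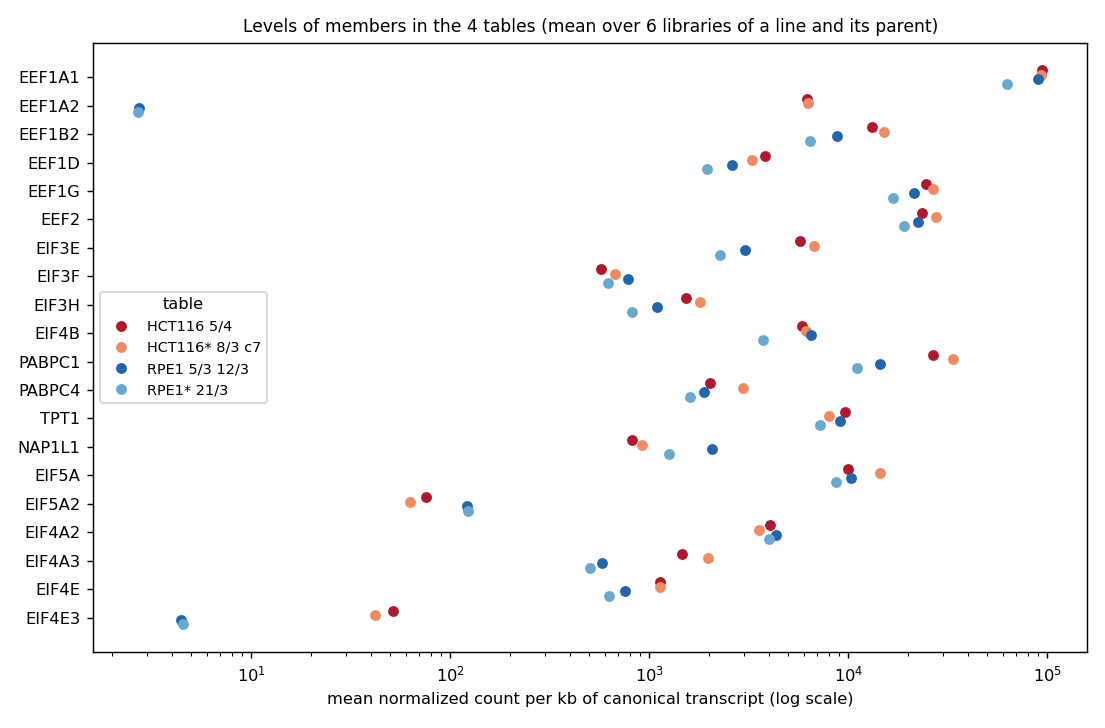
Mean normalized count per kb of canonical transcript, on a log scale, for the elongation and 5′TOP genes and 3 paralog pairs in the 4 tables. EEF1A1 is highest in each table, and EEF1A2 and EIF4E3 are far lower in the RPE1 tables than in the HCT116 tables.

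Of the regulators, EIF4EBP1 passed in HCT116* 8/3 c7 and EEF1E1 in RPE1 5/3 12/3, and none elsewhere. EIF4EBP2, the sister of EIF4EBP1, was at -0.01, 0.02, -0.21 and 0.01 in the 4 lines, and EIF4ENIF1, which carries eIF4E into the nucleus, was at 0.00, 0.02, -0.06 and -0.04. EEF2K, the kinase that inhibits eEF2, was at -0.29, -0.10, -0.34 and -0.21 and was the lowest regulator in all lines but HCT116 5/4, where EIF4EBP1 was at -0.45 ± 0.26. EEF1E1 was highest in RPE1 5/3 12/3 and, at 0.16, in RPE1* 21/3. EIF4ENIF1 was highest in HCT116 5/4, and EIF4EBP1 was highest in HCT116* 8/3 c7.

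Other genes of the translation pathway, 33 by a list that covers eIF2 kinases and phosphatases, mTORC1, cap and poly(A) regulators and factors of release and recycling, were called at shares near or under those of all genes. In HCT116 5/4 5 rose and 3 fell of 32 used, or 25% against 21.8% of all genes, in RPE1 5/3 12/3 4 rose and 0 fell of 33, or 12.1% against 20.3%, in RPE1* 21/3 1 rose, and in HCT116* 8/3 c7 none passed by the Wald test and 0 had an unadjusted p under 0.05. The medians were 0.00, 0.12, -0.03 and 0.01 in that order. PELO, which rescues stalled ribosomes, rose in HCT116 5/4 by 1.77 ± 0.22, and DHX29, a helicase of initiation, ETF1, the release factor, and PAIP1, a partner of the poly(A)-binding protein, rose by 1.02, 0.85 and 0.79, all 4 on the tetrasomic chromosome 5. ABCE1, which splits ribosomes after termination, fell, with a log2 fold change of -1.503 (adjusted p = 6.52e-06), and EIF2AK2, the kinase PKR, rose by 0.83. LARP1, chosen after its values were seen because it binds 5′TOP mRNAs, also lies on chromosome 5. It was at -0.29 ± 0.18 (adjusted p = 0.28) in HCT116 5/4, with 4 copies, and rose by 0.74 ± 0.17 (adjusted p = 0.000246) in RPE1 5/3 12/3, with 3 copies. It was at 0.05 in HCT116* 8/3 c7 and 0.01 in RPE1* 21/3. MTOR and the other mTORC1 genes apart from LARP1 did not pass in any line.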

How the data were processed

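Total RNA was made into TruSeq libraries and sequenced as single reads. Per the submitters' processing notes and the study's methods, reads were trimmed with cutadapt, aligned to hg19 with TopHat2 2.0.10, counted with featureCounts 1.4.3 and compared with DESeq2. The authors deposited 1 table for each aneuploid line against its parental line, and counts of single libraries were not used here. The deposited mean is a normalized count over the 6 libraries and behaves as a signal value. The deposited log2 fold change has bounded standard errors in each table, as under a prior that shrinks it towards 0. The deposited Wald statistic is a score, the log2 fold change divided by its error, and the deposited p-value was adjusted over the whole table, which recomputation matched within 3.26e-06. Depth per library is therefore unknown, and the standard errors give the precision, with a median of 0.24, 0.14, 0.21 and 0.25 in the 4 tables in the order used above.

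The minimum mean for use was 10. Cochran's Q and z tests between lines were computed in Python 3.11.15 with scipy 1.17.1 and adjusted over all genes by Benjamini-Hochberg. The code was tested on simulated data. Genes were placed with GENCODE v44 lifted to GRCh37, through RefSeq synonyms where symbols had changed, which placed 95.7% to 95.9% of them. Starts came from RefSeq (GRCh38.p14). Values are named for every elongation and 5′TOP gene, every deregulated member and every member on a gained chromosome. They are also named for the highest and lowest of each complex in each line and for at most 6 further pathway genes. LARP1 was added to these after its values were seen. The members, lists and tests were chosen with earlier results of these data known. The alternatives tried were other minimum means, p and fold thresholds, centring and removal of the prior.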

Additional observations from a re-analysis of the deposited data

Results flagged for a closer look

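The fold changes of 13 of 56 members differed between the 4 lines in the Q test adjusted over all genes, which is what marks them for a closer look. The share is under the 25.9% of all genes that differed, so the count says nothing particular of the members. For EIF4B (adjusted p = 4.23e-11), NAP1L1 (4.11e-07), EEF1A1 (0.00282), EIF3M (0.00313), EIF3H (0.00532), EIF3L (0.00931), EIF3D (0.0107), EIF2S3 (0.0240) and EIF3E (0.0246) the highest fold change was in RPE1 5/3 12/3. EEF1B2 (0.00759) and EEF2 (0.0329) were also highest there and lowest in HCT116 5/4. EIF4A3 (0.00462) was lowest in HCT116 5/4, where its neighbours on 17q were also below 0, and EIF4EBP1 (0.0403) was highest in HCT116* 8/3 c7, which has 3 copies of its chromosome.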

How the results depend on the processing

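No paired analysis was possible because the tables hold no columns of single libraries, and for the same reason leaving out a replicate, another normalization or another count test could not be run. Most alternative values kept the direction of the reported one, and those that moved counts by over 1.5 times or medians by start are given here. With adjusted p under 0.01, 3 members passed in HCT116 5/4, all 3 deregulated, 3 passed in RPE1 5/3 12/3 and 0 passed in HCT116* 8/3 c7. Above a log2 fold change of 1, 0 members were deregulated in HCT116 5/4 and 0 in RPE1 5/3 12/3. Once the prior was undone, 1 member, EIF4EBP1, was deregulated in HCT116* 8/3 c7. After centring on genes outside the gained chromosomes, 4 were deregulated in RPE1 5/3 12/3 in place of 2, and with the prior undone 3 were. Without the initiation factors that have the pyrimidine start, an alternative added after seeing the data, the median of the others in HCT116* 8/3 c7 was 0.0011 in place of -0.0061. Under that alternative the median of the other initiation factors went from 0.16 to 0.07 in RPE1 5/3 12/3 and from -0.23 to -0.15 in HCT116 5/4. With the 5′TOP list taken by the start, also added after seeing the data, its median in HCT116* 8/3 c7 went from -0.09 to -0.14 and in HCT116 5/4 from -0.42 to -0.30. The median of the other initiation factors in HCT116* 8/3 c7 thus changed sign, both values being near 0, and the other medians given here kept theirs. The number of members that differ between lines was 13 both with the prior undone and after centring. Low counts limit EIF4E1B in the HCT116 tables and EIF4E3 and EIF5AL1 in the RPE1 tables, and the strong prior in HCT116* 8/3 c7, where the largest standard error was 0.18, narrows its fold changes.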
